A study of Mus musculus with 6 samples.

Results

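Genes that restrain or carry out signalling through the kinase ERK were examined in jejunal epithelial cells of mice labelled as carrying an inducible transgene for the RNA-binding protein MSI2. They are 10 genes chosen by symbol: the phosphatases Dusp4, Dusp5 and Dusp6, the Sprouty genes Spry1, Spry2 and Spry4, the Spred genes Spred1 and Spred2, and the ETS transcription factors Etv4 and Etv5. The choice was made with earlier results of these data known. All 10 were measured, by 12 of the 21780 probe sets that named 1 gene, among 19933 genes in all. Primary cells were isolated from 3 mice labelled transgenic (genotype TRE-MSI2::R26-M2rtTA) and 3 mice labelled control (R26-M2rtTA), and each mouse gave 1 Affymetrix Gene 1.0 ST array. M2rtTA is a transactivator placed at the Rosa26 locus, which is active in most cell types, and it switches on genes behind a tetracycline-responsive element (TRE) when doxycycline is present. Every mouse, control or transgenic, carried the transactivator and drank doxycycline for 24 hours. The comparison asks which transcripts differ after the transgene has been switched on for that time. The labels name no strain, age or sex, and the transgene is not restricted to the epithelium by the elements named.

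ERK is the last kinase of a relay in which an activated growth factor receptor loads the small GTPase RAS with GTP, RAS recruits RAF, and RAF and MEK phosphorylate in turn. Active ERK phosphorylates transcription factors, and among the genes switched on are inhibitors of the relay itself, so the transcripts of Dusp6, the Sprouty genes and the PEA3 group of ETS factors are widely used as a transcript readout of ERK activity. In the intestinal crypt, epidermal growth factor signals through this relay to sustain proliferation. The arrays measured transcripts, not the phosphorylation of ERK.

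The label check came first. Msi2 had log2 values of 11.23, 10.58 and 11.44 on the arrays labelled transgenic, against 11.30, 9.53 and 9.32 on those labelled control. Control replicate 1 therefore lay among the transgenic values, and the difference did not pass in limma (log2 fold change 1.03, adjusted p = 0.257). Without that array it was 1.66 (adjusted p = 0.00958). Msi1, the paralog, had 13.44, 12.82 and 13.53 on transgenic and 7.20, 7.97 and 7.62 on control arrays, and rose by 5.66 (SE 0.26, limma adjusted p = 0.000818). The labels name MSI2 but do not give the transgene's sequence or species, so which Musashi sequence it holds was not settled here. Every direction below is drawn between the arrays labelled transgenic and the arrays labelled control.

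The promoters of some of these genes carry short sequences bound by factors on which ERK acts, and they are shown here because all 10 genes had higher means on transgenic arrays. Capicua is a repressor that leaves its targets, Dusp6 and Etv5 among them, when ERK signalling is active. Its octamer, in the forms TGAATGAA, TGAATGAG, TGAATGGA, TGAATGGG, TCAATGAA, TCAATGAG, TCAATGGA and TCAATGGG on either strand, was found in 7.02% of 32851 RefSeq promoter windows of 300 bases (GRCm38.p6). Of the 7 genes with a window in that table, Dusp5, Dusp6, Etv5 and Spry2 held it, in 4 of their 8 windows. The best known forms alone, TGAATGAA and TGAATGGA, were in 2.47% of all windows and in none of these 8. The CArG box, bound by the serum response factor together with ETS partners that ERK phosphorylates, was in 1.63% of all windows and occurred, in 2 adjoining copies, in that of Dusp5. No window held the ETS sequence CCGGAAGT (3.89% of all windows), the AP-1 sequence TGANTCA (7.81%) or the cAMP response element TGACGTCA (1.79%). The PEA3 core AGGAAG, present in 35.4% of all windows, was in those of Dusp5, Dusp6, Etv5 and Spred2. The 250 bases before the transcription start follow, 5′ to 3′ on the strand of the gene, with the Capicua octamers, and for Dusp5 also the CArG boxes, in capitals. These are matches of letters, and binding was not measured.
Dusp6, chr10:99262981-99263230, plus strand: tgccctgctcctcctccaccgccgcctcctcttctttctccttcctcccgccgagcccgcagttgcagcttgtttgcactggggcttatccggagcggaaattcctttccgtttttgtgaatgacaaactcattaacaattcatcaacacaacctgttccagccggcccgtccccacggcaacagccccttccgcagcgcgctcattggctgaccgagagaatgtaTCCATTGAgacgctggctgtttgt
Etv5, chr16:22438369-22438618, minus strand: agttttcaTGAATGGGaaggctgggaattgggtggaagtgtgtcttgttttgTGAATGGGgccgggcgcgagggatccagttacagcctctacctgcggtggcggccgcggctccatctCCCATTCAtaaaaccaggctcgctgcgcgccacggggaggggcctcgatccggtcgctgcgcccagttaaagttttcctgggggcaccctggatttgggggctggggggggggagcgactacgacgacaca
Dusp5, chr19:53528895-53529144, plus strand: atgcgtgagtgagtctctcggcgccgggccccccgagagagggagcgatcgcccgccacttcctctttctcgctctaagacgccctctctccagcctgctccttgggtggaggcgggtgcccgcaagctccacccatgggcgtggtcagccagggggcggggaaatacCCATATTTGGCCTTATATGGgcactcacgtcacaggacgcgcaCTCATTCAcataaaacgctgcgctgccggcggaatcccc
Spry2, chr14:105896820-105897069, minus strand: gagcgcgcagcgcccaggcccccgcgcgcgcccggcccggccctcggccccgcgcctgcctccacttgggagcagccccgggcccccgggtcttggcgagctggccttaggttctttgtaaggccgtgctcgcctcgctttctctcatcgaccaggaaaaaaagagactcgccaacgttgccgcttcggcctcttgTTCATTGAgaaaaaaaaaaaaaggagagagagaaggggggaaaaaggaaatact

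Dusp6 had a second octamer, which began just inside its transcribed part and is not printed. The window of Etv5 is its second one in the table and held 3 octamers, while its first window held none.

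All 10 genes had higher means on the arrays labelled transgenic, and on every one the lowest transgenic value lay above the highest control value. Of all genes, 37% were separated in either direction and 19.5% in this one. Each gene was read here by its brightest probe set, and in the other probe set of Etv5 the groups overlapped. In limma, with p-values adjusted over all genes, 8 of the 10 rose and none fell, where 8.97% of all genes rose and 9.65% fell (18.6% in either direction). Spry2 and Etv5 did not pass. The median log2 fold change over the 10 genes was 1.42, against 0.02 over all genes. The 10 genes, and the gene lists set beside them below, were chosen with earlier results of these data known. These shares and medians therefore describe the genes and are not a test of them as a group. Spry4 (5.18-fold), Dusp6 (4.59-fold), Dusp5 (4.02-fold), Dusp4 (3.79-fold) and Spred1 (3.02-fold) had the highest values, and Spry1, Etv4 and Etv5 were near 1.5-fold.

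These calls rest on few arrays. Without control replicate 1, 8 of the 10 genes rose, where 13.4% of all genes did, and 8 also rose without transgenic replicate 2 (11% of all genes). Without transgenic replicate 1, 2 of the 10 rose (3.31% of all genes), and 2 without transgenic replicate 3 (2.62%). Without control replicate 2, and likewise without control replicate 3, 1 of the 10 rose (2.39% of all genes in each fit). Spry4 was the gene that passed in every one of the 15 alternative settings, and the direction was the same for all 10 genes in all of them. With the replicate number as a block, a pairing that no label gives, all 10 genes rose, where 12.7% of all genes did.

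**Figure D1:**
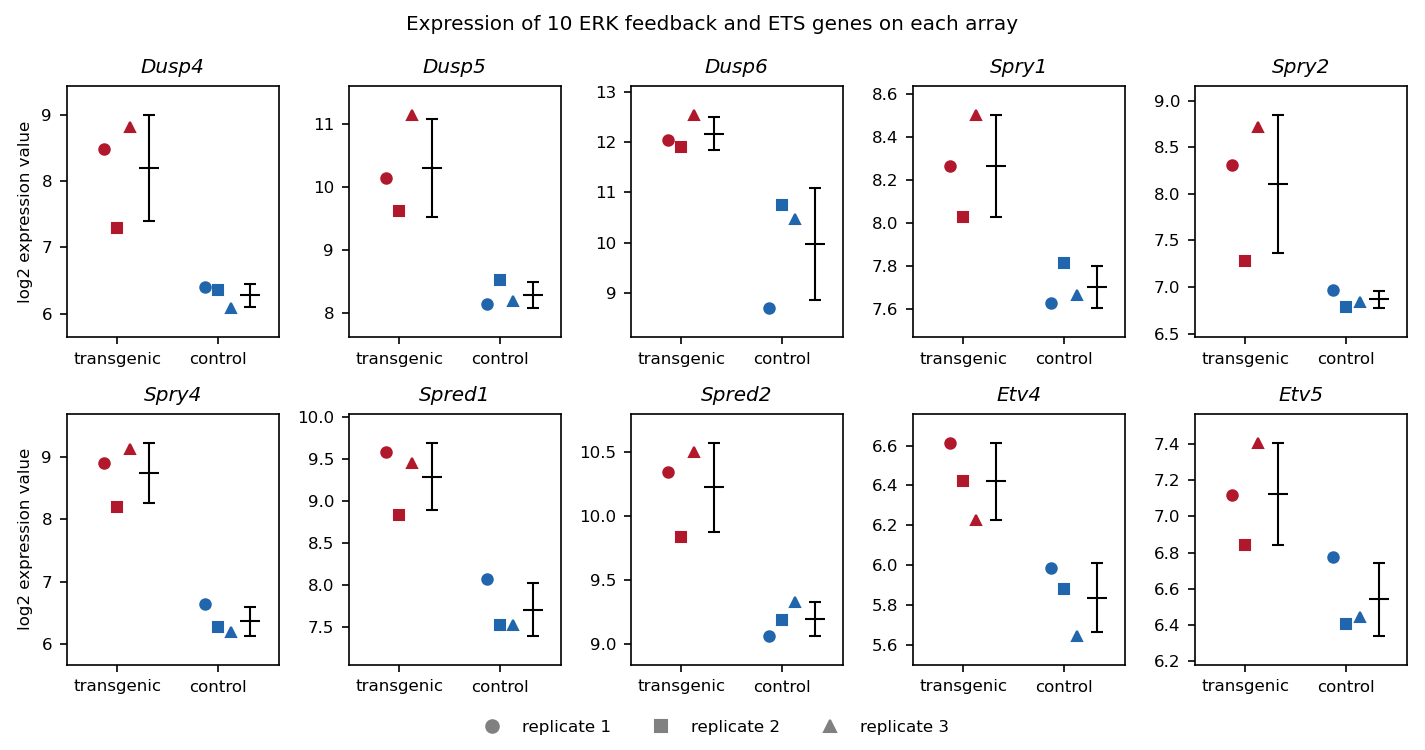
Log2 expression value (y axis, a scale of its own in each panel) of the 10 genes on each array, with the 3 transgenic arrays at the left and the 3 control arrays at the right of each panel. Marker shapes give the replicate, and the bar at the right of each group is its mean with 1 SD (n = 3). The groups do not overlap in any panel, and control replicate 1 lies far below the other controls for Dusp6. Spred2 and Etv5 are each shown by the brighter probe set, and in the other probe set of Etv5 the groups overlapped.

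The phosphatases were examined by the compartment in which they act. Dusp6 encodes the cytoplasmic phosphatase that is specific to ERK. Its log2 values were 12.05, 11.92 and 12.55 on transgenic arrays, against 8.69, 10.75 and 10.47 on control arrays. The lowest transgenic value lay more than 1 log2 unit above the highest control value, and the control group was spread widely because control replicate 1 stood below the other controls. The log2 fold change was 2.20 (SE 0.55, limma adjusted p = 0.0403). Without control replicate 1 it was 1.56 and passed (adjusted p = 0.00633), while without any other single array it did not (highest adjusted p = 0.14, without transgenic replicate 3). Dusp6 did not pass either when the sex of the animals, read from transcripts and unequal between the groups, was a term (limma adjusted p = 0.0941).

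Dusp5 encodes the nuclear phosphatase that acts on ERK and anchors it there. Dusp5 had 10.14, 9.62 and 11.14 on transgenic arrays, against 8.15, 8.53 and 8.20 on control arrays. It rose by 2.01 on the log2 scale (SE 0.38, limma adjusted p = 0.0195). The gap between the groups was wide, and transgenic replicate 3 stood above the other transgenic arrays. Dusp4, another nuclear phosphatase, which also acts on the stress kinase JNK, had 8.48, 7.29 and 8.82 on transgenic arrays, against 6.40, 6.35 and 6.08 on control arrays. Dusp4 rose by 1.92 (SE 0.39, limma adjusted p = 0.0231), with tight controls and a transgenic replicate 2 that lay nearest to them. Dusp5 lost its call in 3 and Dusp4 in 4 of the 6 fits with 1 array left out, both with their highest adjusted p without control replicate 3 (0.0798 and 0.0922).

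Sprouty proteins are induced by growth factors and block the step from the receptor to RAS and RAF. Spry4 had 8.90, 8.19 and 9.12 on transgenic arrays, against 6.64, 6.27 and 6.20 on control arrays. Its log2 fold change was 2.37 (SE 0.26, 95% interval 1.74 to 3.00, limma adjusted p = 0.00495). Every transgenic value of Spry4 was more than 1.5 above every control value. Spry2, known in the mouse gut as a brake on growth factor signals, had 8.31, 7.28 and 8.72 on transgenic arrays, against 6.97, 6.79 and 6.84 on control arrays. The controls of Spry2 were close together and the transgenic arrays far apart, with replicate 2 little above the controls. Its log2 fold change of 1.24 (SE 0.35, 95% interval 0.38 to 2.10) did not pass in limma (adjusted p = 0.059). It passed once replicate number was a block (adjusted p = 0.0313), and also without transgenic replicate 2 (log2 fold change 1.65, adjusted p = 0.00356). Spry1 had 8.27, 8.03 and 8.50 on transgenic arrays, against 7.63, 7.82 and 7.66 on control arrays. Spry1 rose by 0.56 (SE 0.14, limma adjusted p = 0.0371), a small shift beside a small spread. It kept its call in 1 of the 6 fits with 1 array left out (highest adjusted p = 0.127, without control replicate 3), and lost it with a term for sex (adjusted p = 0.0702).

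Spred proteins bring neurofibromin, which switches RAS off, to the cell membrane. Spred1 had 9.59, 8.83 and 9.46 on transgenic arrays, against 8.06, 7.52 and 7.52 on control arrays. It rose by 1.59 (SE 0.25, limma adjusted p = 0.0118), with control replicate 1 the nearest control to the transgenic values. Spred2 was read by 2 probe sets, of which the brighter had 10.34, 9.83 and 10.50 on transgenic arrays, against 9.07, 9.19 and 9.33 on control arrays. Spred2 rose by 1.03 (SE 0.18, limma adjusted p = 0.0171). The other probe set of Spred2, in a fit over all probe sets added after the data were seen, gave 1.08 (SE 0.24, limma adjusted p = 0.0309), so both rose to a like degree. Spred1 lost its call in 3 and Spred2 in 4 of the 6 fits with 1 array left out, with highest adjusted p of 0.0574 and 0.0702.

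Etv4 and Etv5 belong to the PEA3 group of ETS factors, which carry ERK and fibroblast growth factor signals to target genes. Etv4 had 6.61, 6.42 and 6.23 on transgenic arrays, against 5.98, 5.88 and 5.64 on control arrays. It rose by 0.59 (SE 0.14, limma adjusted p = 0.0339), and its highest control value of 5.98 was close below its lowest transgenic value. Etv4 kept its call in 1 of the 6 fits with 1 array left out (highest adjusted p = 0.111, without control replicate 3), and lost it with a term for sex (adjusted p = 0.073). Etv4 had the lowest value among the 10 genes, 5.64, which was still above 5.06, the upper end of the range read from transcripts that should be absent (Xist, or genes of the Y chromosome, on arrays of the opposite sex). The brighter of 2 probe sets of Etv5 had 7.12, 6.84 and 7.40 on transgenic arrays, against 6.77, 6.41 and 6.45 on control arrays. The groups were separated by a narrow gap, set by control replicate 1. Its log2 fold change of 0.58 (SE 0.17, 95% interval 0.16 to 1.00) did not pass in limma (adjusted p = 0.0672). It passed once replicate number was a block (adjusted p = 0.0458), with a term for sex (0.0498 for the same p), and without control replicate 1 (log2 fold change 0.69, adjusted p = 0.0336) or without transgenic replicate 2 (0.72, adjusted p = 0.0338). The other probe set gave 0.54 (limma adjusted p = 0.119), and there the groups overlapped at 6.21.

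The 10 genes also varied together among the transgenic arrays. Replicate 2 had the lowest transgenic value for 9 of them, with Etv4 as the exception, and replicate 3 the highest for 8. The share of all genes with this order was not counted. Over all probe sets, transgenic replicate 2 correlated with the 3 control arrays by 0.972 to 0.977. Transgenic replicate 1 did so by 0.947 to 0.966 and replicate 3 by 0.957 to 0.967. Replicate 2 thus lay nearest to the controls across the whole array, not in the 10 genes alone. Relative to the control mean, the median over the 10 genes was 1.65, 0.83 and 1.81 in transgenic replicates 1, 2 and 3. Transgenic replicate 2 also had the lowest Msi1 and Msi2 values of its group. It had the highest mean log2 value over 7 enterocyte markers, 12.19, against 10.36 and 11.32 in transgenic replicates 1 and 3, and over 9 lymphocyte markers, 7.46, against 6.42 and 6.93. The part of these differences between animals in the spread of the 10 genes was not tested. Among the controls, replicate 1, the array with the high Msi2 value, was highest for 6 of the 10 genes and lowest for 4, Dusp6 among these. Over all probe sets, control replicates 2 and 3 correlated by 0.996, and control replicate 1 with them by 0.981 and 0.982. The mean of control replicate 1 over the enterocyte markers was 11.72, against 12.98 and 12.90 in control replicates 2 and 3. Over the lymphocyte markers it was 9.07, against 8.58 and 8.54. The part of these differences in the values of the 10 genes was not tested either.

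**Figure D2:**
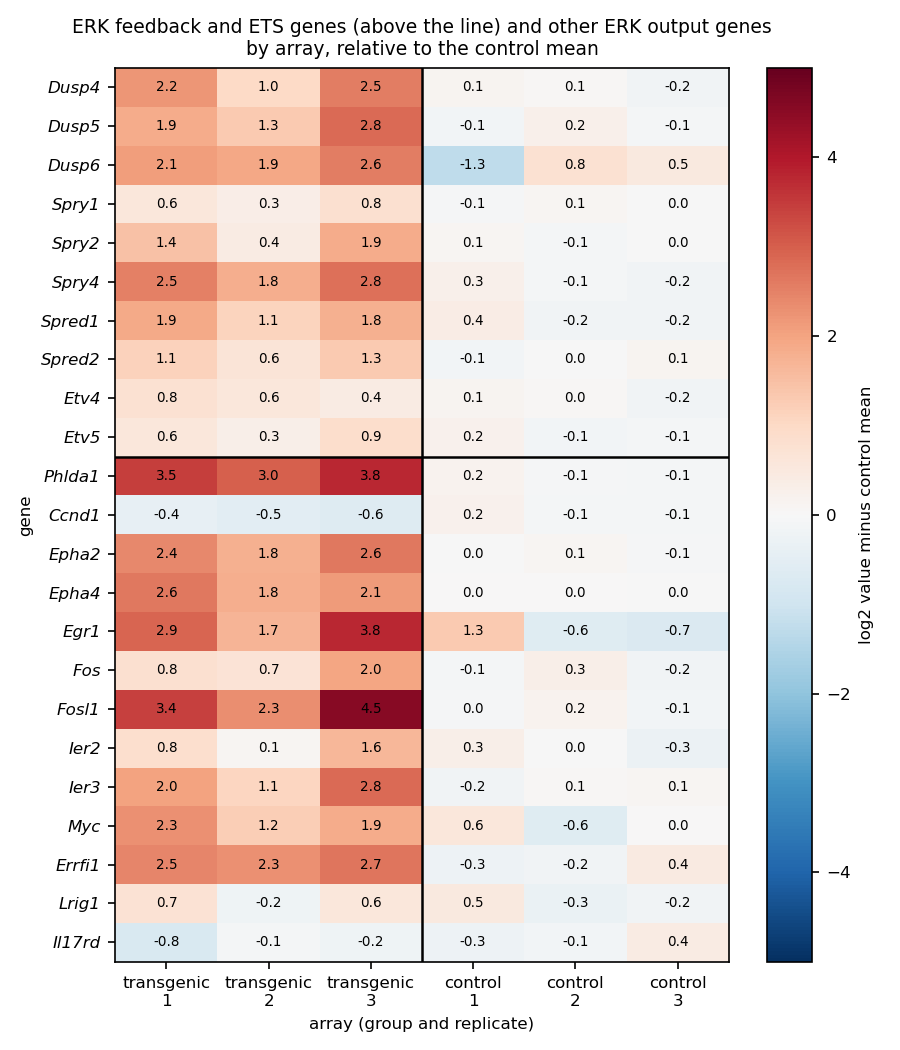
Log2 value minus the control mean (colour and printed number) for the 10 ERK feedback and ETS genes above the line and 13 other ERK output and feedback genes below it, with transgenic arrays at the left and control arrays at the right. Above the line all transgenic cells are positive and replicate 2 is the palest for 9 of 10 genes, and below it Phlda1 is strongly positive while Ccnd1 is negative on all 3 transgenic arrays.

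Of the 7 remaining MAP kinase phosphatases, 4 rose and none fell, where 8.97% of all genes rose and 9.65% fell. Their median log2 fold change was 0.70. Dusp1, an immediate early phosphatase that acts on the stress kinases p38 and JNK as well as ERK, rose by 2.65 (SE 0.54, limma adjusted p = 0.0238). Dusp7, a cytoplasmic relative of Dusp6, rose by 1.59 (SE 0.26, limma adjusted p = 0.0142), and Dusp10 and Dusp8, which act on JNK and p38, by 1.38 and 0.70. The other 3 were named after their values were seen. Dusp2 and Dusp16 had log2 fold changes of 0.04 and 0.05, with 95% intervals of -0.15 to 0.23 and -0.34 to 0.44, and Dusp9 was at 0.45 (adjusted p = 0.0502). None of the 7 passed without control replicate 2 or 3, 1 did without transgenic replicate 3 and 2 did without transgenic replicate 1.

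Spry3, the Sprouty gene outside the group, went the other way. It had 6.72, 7.68 and 6.54 on transgenic arrays, against 8.69, 9.27 and 9.38 on control arrays, and fell by 2.13 on the log2 scale (SE 0.34, limma adjusted p = 0.0125). The groups of Spry3 lay more than 1 log2 unit apart. Spred3 rose by 0.92 (SE 0.19, limma adjusted p = 0.0261). Each lost its call in 3 of the 6 fits with 1 array left out (highest adjusted p = 0.0593 and 0.0989). With a term for sex, Spry3 kept its call and Spred3 lost it.

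Most other ETS factors did not pass. Of 22, 4 rose and 2 fell, with a median log2 fold change of 0.01. Of all genes 8.97% rose and 9.65% fell, so the number of ETS factors that fell was near the share of all genes. Ets2, which RAS signalling phosphorylates, rose by 1.15 (SE 0.14, limma adjusted p = 0.00643) and kept its call without any single array. The repressor Etv6 rose by 0.74, Elk1, a partner of the serum response factor, by 0.56 and Gabpa by 0.46. Etv1, the third PEA3 factor, and Fli1 fell by 0.39 each and were named after their values were seen. Etv1 was dim, with 5.38, 5.18 and 5.38 on transgenic and 5.56, 5.72 and 5.83 on control arrays. These values lay little above 5.06, the upper end of the range of absent transcripts. Neither Etv1 nor Fli1 passed with the replicate block (limma adjusted p = 0.0535 and 0.0606). Without transgenic replicate 1 or 3 or control replicate 2 or 3 only 1 ETS factor rose and none fell.

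**Figure D3:**
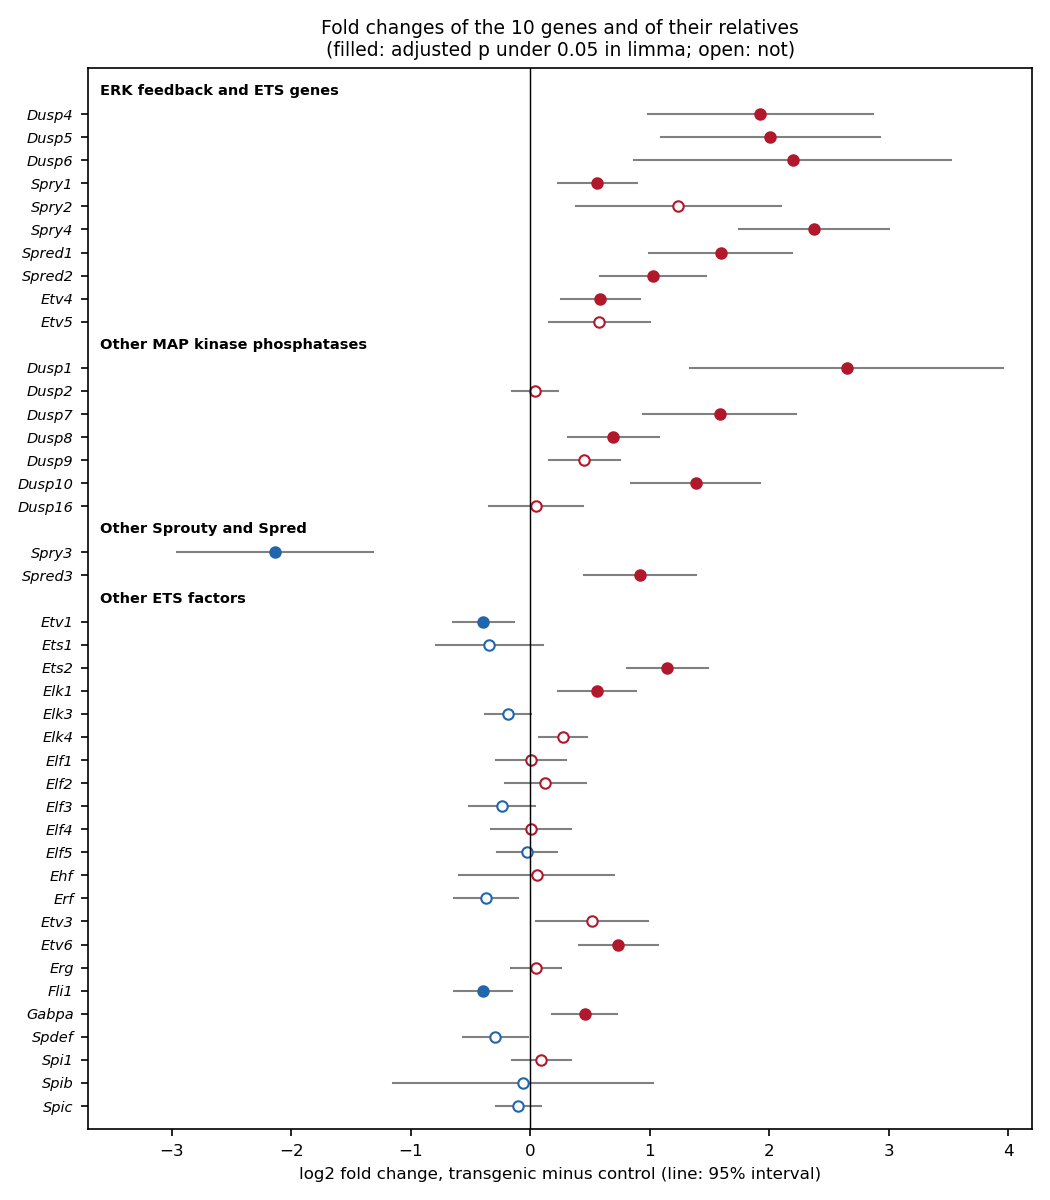
Log2 fold change, transgenic minus control (x axis), with its 95% interval (line) for the 10 genes, the 7 other MAP kinase phosphatases, Spry3 and Spred3, and 22 other ETS factors. Filled points passed at an adjusted p under 0.05 in limma, red is higher and blue lower in transgenic arrays. All 10 genes lie right of 0, Spry3 lies at -2.13, and most other ETS factors lie near 0.

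Of 13 other genes that ERK signalling is known to induce, 8 rose and 1 fell, where 8.97% of all genes rose and 9.65% fell. Their median log2 fold change was 1.96. Phlda1 rose by 3.40 (SE 0.21, limma adjusted p = 0.00114), Errfi1, a direct inhibitor of the EGF receptor, by 2.48 (SE 0.21), and the ephrin receptor genes Epha2 and Epha4 by 2.27 and 2.19. All 4 kept their calls without any single array. Ccnd1, the cyclin of the G1 phase and a standard ERK output, fell by 0.53 (SE 0.12, limma adjusted p = 0.0334) and was named after its value was seen. Its call was lost in 5 of the 6 fits with 1 array left out (highest adjusted p = 0.118, without transgenic replicate 3). The number that rose was 5 without transgenic replicate 1 or 3 and 4 without control replicate 2 or 3.

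Upstream of ERK, of 18 receptor and ligand genes, 7 rose and 3 fell (median log2 fold change 0.18). Of all genes 8.97% rose and 9.65% fell. The EGF receptor gene Egfr rose by 1.23 (SE 0.10, limma adjusted p = 0.00249), and its ligand genes Btc and Hbegf by 3.21 and 2.57. Fgfr3, a fibroblast growth factor receptor, fell by 1.07, and Erbb2 and Fgfr2, named after their values were seen, by 1.51 and 1.43. Erbb2 kept its call without any single array, and Fgfr2 in 2 of the 6 fits with 1 array left out (highest adjusted p = 0.11, without transgenic replicate 3). Of 15 measured genes of the relay from adaptor to kinase, 2 rose and 2 fell (median 0.22), or 4 and 4 with the replicate block. Without the block these numbers were not far from the shares of all genes. With the block 12.7% of all genes rose, and 5139 of 19933 passed in either direction. The GTPase gene Nras rose by 1.05 (SE 0.14, limma adjusted p = 0.00746) and the adaptor gene Shc1 by 0.56. The docking protein gene Gab1 fell by 1.41 and Rasa1, which switches RAS off, by 0.45. Apart from Nras, these relay genes lost their call without at least 1 array (highest adjusted p = 0.0735 for Shc1, 0.115 for Gab1 and 0.0836 for Rasa1). None of the 15 fell without transgenic replicate 1 or 3 or control replicate 2 or 3, and 1 rose without each of the last 3 of these arrays.

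The transcript of the repressor Capicua itself, looked up after the values of the 10 genes were seen, was lower. Cic had 6.83, 7.41 and 6.87 on transgenic arrays, against 7.85, 7.98 and 8.21 on control arrays, and fell by 0.98 (SE 0.18, limma adjusted p = 0.0193). The groups did not overlap, as for 37% of all genes in either direction. The call held in only 2 of the 6 fits with 1 array left out (highest adjusted p = 0.0796, without transgenic replicate 3). The part of Cic in the values of the 10 genes was not tested.

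Genes with the most similar profile were sought for each of the 10, by the root mean square difference of values centred on their mean over the 6 arrays. Socs3, a feedback inhibitor of cytokine signalling, was nearest to Dusp6 (difference 0.13), Csrnp1 to Dusp5 (0.13), Hilpda to Dusp4 (0.07) and Rnd3 to Spry4 (0.14). For the other 6 genes the nearest profile differed by 0.03 to 0.10. Since these profiles are mostly the difference between the groups, likeness in 6 arrays is a description.

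Epithelial markers were bright on all arrays but not all alike between the groups. Epcam lay between 12.60 and 12.87 on all 6 arrays. Of the 8 epithelial markers, the keratin gene Krt18 rose by 1.47 (limma adjusted p = 0.00221) and the cadherin gene Cdh1 by 0.32 (adjusted p = 0.0432). The intestinal transcription factor gene Cdx2 fell by 0.82 (limma adjusted p = 0.017), as did Vil1, named after its value was seen, by 0.80 (adjusted p = 0.0453). Krt18 kept its call without any single array, and the other 3 did not. Markers of some other cells differed between the groups, in a comparison where 8.97% of all genes rose and 9.65% fell. Of 9 lymphocyte markers 8 fell and none rose, among them Itgae by 1.85, Nkg7 by 2.53 and Cd8a by 1.54, and their summed linear signal ranged from 908 to 2134 on transgenic arrays and from 4838 to 7784 on control arrays. Without transgenic replicate 3 or control replicate 2 or 3, 2 of the 9 fell. Of 5 crypt base markers 3 fell (Olfm4, Axin2 and Ascl2), with summed signals of 1331 to 1791 on transgenic arrays and of 6972 to 8011 on control arrays. In RNA of mixed cells, fewer cells of a type and less RNA per cell cannot be told apart. Of 7 enterocyte markers none passed, with summed signals of 20099 to 45975 on transgenic and 30867 to 64969 on control arrays. Their median log2 fold change was -1.14, and 6 of the 7 fell with the replicate block and 5 with array weights. Of all 19933 genes, 5139 passed in either direction with the block and 7072 with array weights, against 3710 in the main fit. Of 9 myeloid markers Cd14 rose by 1.07, of 10 stromal markers Vim fell by 0.89, and of 6 endothelial, 3 B cell and 3 enteric glia markers none passed. The B cell markers Cd79a and Ms4a1 lay within the range of absent transcripts on all 6 arrays. So did the endothelial markers Kdr, Tek and Emcn, the enteric glia marker Elavl4 and the myeloid marker Adgre1. That these markers did not pass says little about those cells. The part of these other cells in the rise of the ERK feedback genes was not tested.

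**Figure D4:**
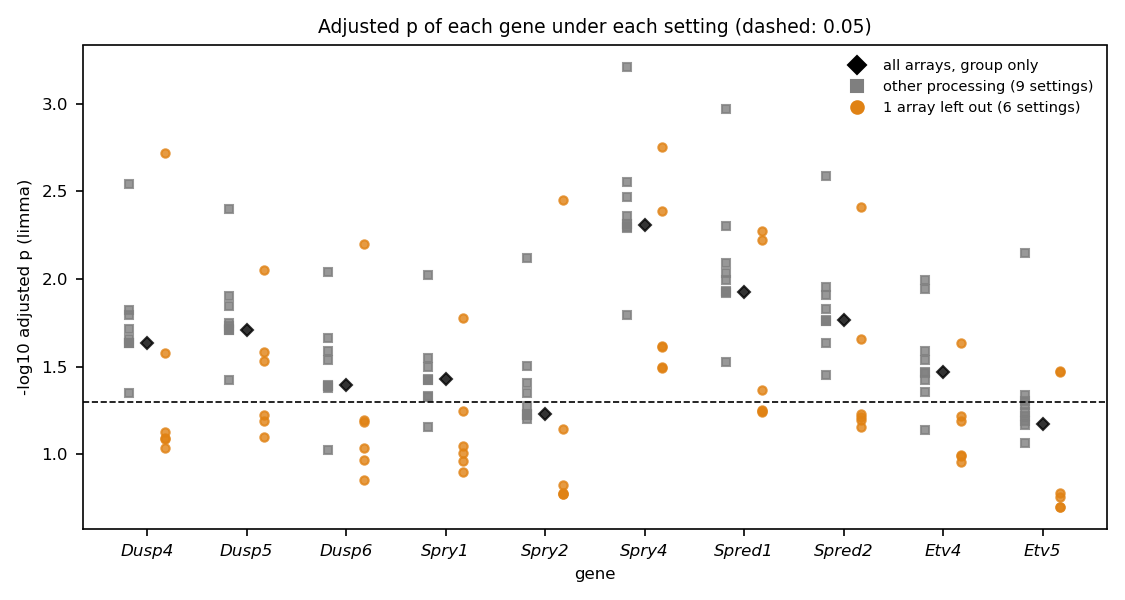
Adjusted p from limma as -log10 (y axis, higher is smaller) for each of the 10 genes (x axis) with all arrays and group as the only term (black diamonds), under 9 other settings with all arrays (grey squares) and with 1 array left out (6 orange circles). The dashed line is an adjusted p of 0.05, and only the points of Spry4 all lie above it.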

How the data were processed

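The authors deposited log2 expression values per probe set, 1 column for each array. That they are log2 was judged from their range, and the submitters' processing notes name Partek and RMA without versions. This procedure subtracts background, makes the arrays' distributions alike and combines probes, so global shifts are removed and changes of dim probe sets are compressed. Array medians were 6.42 to 6.46. For the probes, the sources used here give no genome build. Of 28350 probe sets, 21780 named 1 gene, 1618 several and 4952 none. Symbols were updated through RefSeq gene identifiers of GRCm38.p6 (21689 matched). The probe set with the highest mean stood for each of 19933 genes, with no filter on low values.

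The main test was limma 3.58.1 (R 4.3.3), with lmFit and eBayes on group alone (two-sided, Benjamini-Hochberg over all genes, threshold 0.05), and the fit was tested on simulated data. Fold changes are transgenic minus control, SE is the moderated one. The labels call the samples biological replicates, and precision is limited by having 3 arrays a group. The 10 genes and the other lists were chosen with earlier results of these data known. Named from the other lists were up to 4 genes with the lowest p past the threshold (up to 3 from cell marker lists), and others are said to have been named after their values were seen. Listed genes without a 1-gene probe set were not analysed here.

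Deviations from the group means correlated by 0.47, 0.36 and 0.12 for arrays of the same number, over all probe sets. All 3 are above 0.1, so the number was taken as a pairing in an alternative fit. Transgenic replicate 2 and control replicate 3 correlated by 0.28, above the 0.12 of the arrays numbered 3. The other pairs of unlike number were negative. The pairing of the arrays numbered 3 is therefore weakly marked. The pairing comes from the data alone, since no label says what a number shares, and deviations within a group cancel out. Other alternatives were the mean of all probe sets, a minimum mean of 6, quantile normalization, median centring, an intensity trend, array weights, the sex of the animals (from Xist and Y-linked genes), and each array left out. With sex as a term the log2 fold change of Spry4 was 2.49, against 2.37 without it. A term spread evenly over the groups would leave it unchanged. The sexes were therefore unequal between the groups, and sex and group are partly mixed. Promoter windows (RefSeq, GRCm38.p6) were searched in Python 3.11.15.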

Additional observations from a re-analysis of the deposited data

How the results depend on the processing

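All 10 genes kept a positive log2 fold change in the 15 alternatives, and only Spry4 also passed in each. With 1 array left out, between 1 and 8 of the 10 genes passed, all of them higher, between 13 and 42 genes of the other pathway lists (35 with all arrays) and between 952 and 5542 of all genes (3710 with all arrays). A fit with fewer arrays has fewer degrees of freedom. With array weights 7072 genes passed, and 2159 with sex as a block, where 6 of the 10 genes passed. The replicate block as a pairing gave 10 of the 10 genes, 38 genes of the other pathway lists and 5139 of all genes. Among the 10 genes, Msi2 and Msi1, the block changed only the calls of Spry2 and Etv5. Msi2 passed with array weights (log2 fold change 1.62, adjusted p = 0.0129) and without control replicate 1, and ranged from 0.67 to 1.66 with 1 array left out. Renewed quantile normalization, median centring, and the mean of all probe sets changed no call among the 10 genes. Spry2 also passed with a minimum mean of 6, with an intensity trend and with array weights (adjusted p = 0.0392, 0.0448 and 0.00757), and Etv5 with array weights (adjusted p = 0.00707). The cause of these changes was not tested.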
